A study of Mus musculus with 8 samples.

Results

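The 39 genes described here encode hydrolases of the lysosome, the proton pump that acidifies it and the proteins of its membrane and lumen that work with them. They were taken from the deposited gene table by symbol, 39 genes of 22597, and all 39 passed the filter on low counts, as 12750 genes did. There are 15 hydrolases, 14 genes of the vacuolar proton pump (V-ATPase) and 10 others, which are 4 membrane proteins, 3 genes of lipid export and ion release, and 3 enzyme cofactors or damage sensors. Lysosomes digest what a macrophage takes up. The V-ATPase pumps protons into the lumen with its membrane part V0, driven by the ATP-splitting part V1 on the cytosolic side, and the acid hydrolases work at the low pH that results. Sphingolipid breakdown needs saposins, small activator proteins cut from prosaposin, and cholesterol leaves the lysosome through NPC2, which hands it over in the lumen, and NPC1, which sits in the membrane. Macrophages are rich in lysosomes because they clear dead cells and debris.

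The RNA came from interstitial macrophages sorted from the lungs of female C57BL/6 bone marrow chimeras. The recipients, CD45.1/CD45.2 IMDTR mice (Cx3cr1-DTR in the protocol text), were irradiated with the thorax shielded. One group received marrow from Lyz2Cre Tgfbr2fl/fl donors (Tgfbr2_KO, 4 libraries, KO 1 to KO 4), and the other received marrow from Tgfbr2fl/fl donors without Cre (WT, 4 libraries, WT 1 to WT 4). Both groups therefore carried floxed alleles of Tgfbr2, which encodes a receptor for TGF-β, and both were given 50 ng of diphtheria toxin 1 month after the transplant and sampled 10 days later. The labels give an age of 12 to 16 weeks, whereas the protocol text gives 18 weeks for the recipients. Lyz2Cre recombines floxed alleles in myeloid cells generally, and Cre was carried by the KO donors alone, so an effect of Cre and a loss of the receptor cannot be told apart. Nothing in the labels says that each library is its own mouse, so p-values measure the spread between libraries, which may be technical. The sources used here do not say whether the sort selected cells of donor origin.

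Counts assigned to genes totalled 19092786 to 27124389 in KO libraries and 15597310 to 37654133 in WT libraries. The 10 macrophage markers checked summed to 7946 CPM (counts scaled to the same library total) in KO 1 and 17036 to 17581 CPM in KO 2 to KO 4, against 11878 and 12749 CPM in WT 1 and WT 2 and 17151 and 17460 CPM in WT 3 and WT 4, so macrophage markers were high in all 8. KO 1, WT 1 and WT 2 also held lung RNA: 14 epithelial markers summed to 6231 CPM in KO 1, against 3991 and 3477 CPM in WT 1 and WT 2, while the other 5 libraries held 232 to 360.2 CPM. These 3 libraries are called lung-rich below. Summed endothelial markers (2618 to 5110 CPM against 213 to 284 CPM) and fibroblast markers (1051 to 1687 CPM against 140.1 to 183 CPM) separated the same libraries. In the other 5 libraries, 12 alveolar macrophage markers summed to 172 to 194 CPM in KO and to 647 and 655 CPM in WT. Chil3 alone was at 15.8 to 17.6 CPM in KO and at 348 and 347 CPM in WT. Siglecf was at 5.15 CPM or less, and Krt79 and Fabp1 were under 1 CPM. The difference was not confined to Chil3. Of the 10 markers tested within these libraries, 7 were called lower and 1 higher in KO (fit described below). Their median log2 fold change was -1.14, with 9 below 0. In the same libraries, 10 dendritic cell markers summed to 139 to 140.1 CPM in KO and to 78.5 and 77.5 CPM in WT. No marker on these lists was at 0 in every library. Tgfbr2 itself was at 424 to 576 CPM in KO and 474 to 548 CPM in WT. In the fits described below it was not called with genotype as the only term. Its log2 fold change was below 0 there, with the library set as a term and within the lung-rich libraries. Gene-level counts do not resolve the floxed part.

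Levels per length put the lysosomal genes in nearly the same order in both genotypes. Psap, which encodes prosaposin, was the highest, at 2020 CPM per kb of exon in KO and 2430 CPM per kb in WT. Cd68, a heavily glycosylated membrane protein of macrophage endosomes and lysosomes, came next, with 567 CPM per kb in KO and 516 in WT, and then Lamp1, a main component of the lysosomal membrane coat, with 491 CPM per kb in KO and 454 in WT. Grn, the precursor of granulins, and Hexa, the α subunit of β-hexosaminidase, followed and exchanged places, with Grn at 334 CPM per kb in KO and 270.2 in WT and Hexa at 309.9 CPM per kb in KO and 285 in WT. The proteolipid ring subunit Atp6v0c was the most abundant pump gene per length, at 204 CPM per kb in KO and 181 in WT, and Atp6v1h, a regulatory subunit of V1, was the lowest of all 39, at 6.27 CPM per kb in KO and 6.32 in WT. Psap alone made up 29.1%, 32.6%, 33.5% and 33.2% of the summed CPM of the 39 genes in KO 1 to KO 4, against 28.8%, 34.0%, 41.1% and 41.2% in WT 1 to WT 4. The share was highest in WT 3 and WT 4, and WT 1, below every KO library, made the genotypes overlap.

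Many lysosomal promoters carry the palindrome CACGTG, the core of the element through which transcription factors of the TFEB and TFE3 family act. It was found in 10 of the 34 members with an entry in the RefSeq promoter table (29.4%), and in 8.09% of the 27025 gene symbols in that table, each promoter running from 250 bases before to 50 bases after the start. The longer palindrome TCACGTGA, which contains the shorter one, was in 5 of 34 (14.7%) against 1.12% of all symbols. Both read the same on either strand. The stretches below are from RefSeq (GRCm38.p6), 5′ to 3′ on the gene's strand, with CACGTG in capitals and 20 bases on each side. They are shown because Lamp1 and Mcoln1 hold more than 1 copy, Gla and Naglu are hydrolases that were lower in KO libraries in a comparison described further on, and Atp6v0e and Atp6v1a are pump genes that moved apart.
Lamp1 (chr8:13159080-13159171, plus strand): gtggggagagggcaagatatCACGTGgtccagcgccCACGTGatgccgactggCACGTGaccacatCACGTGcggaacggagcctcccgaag
Mcoln1 (chr8:3500428-3500499, plus strand): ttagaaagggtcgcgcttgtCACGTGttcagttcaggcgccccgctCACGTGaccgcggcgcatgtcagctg
Gla (chrX:134601174-134601252, minus strand): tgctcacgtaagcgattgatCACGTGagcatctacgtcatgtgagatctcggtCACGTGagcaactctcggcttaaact
Naglu (chr11:101070001-101070046, plus strand): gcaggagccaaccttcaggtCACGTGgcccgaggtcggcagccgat
Atp6v0e (chr17:26676379-26676424, plus strand): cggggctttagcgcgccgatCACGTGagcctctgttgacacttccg
Atp6v1a (chr16:44139365-44139410, minus strand): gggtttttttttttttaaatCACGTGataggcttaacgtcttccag

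With genotype as the only term and all 8 libraries, none of the 39 genes passed the threshold, an adjusted p under 0.05 in the edgeR quasi-likelihood test. That test passed 0.298% of all genes. Of the 39, 2 had an unadjusted p under 0.05, Scarb2 (log2 fold change -0.34 ± 0.11 SE, adjusted p = 0.287) and Atp6v0a1 (0.33 ± 0.13 SE, adjusted p = 0.398), and 1328 of all genes did. DESeq2 called Scarb2 alone lower, and limma-voom called none. Without KO 1, Atp6v0a1 was called higher and Scarb2 lower. The genotypes overlapped in CPM for all 39 genes, whereas 6.90% of all genes had no overlap (4.19% higher and 2.71% lower in KO). The median log2 fold change was 0.06 over the 39 genes, 0.06 over the hydrolases and 0.03 over the pump genes, with -0.01 over all genes tested. Of the 39 values 26 were above 0 and 13 below. Single libraries turned the sign of these medians. Over the 39 genes the median was 0.16 without KO 1, -0.03 without WT 1 and -0.00 without KO 4 or WT 2. Over the hydrolases it ran from -0.01 to 0.14 and over the pump genes from -0.04 to 0.16 as each library was left out. The pump median minus the hydrolase median was -0.03 with all libraries and 0.03 without KO 1.

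The lung-rich libraries stood apart for nearly every member. KO 1 lay below KO 2 to KO 4 for 37 of 39 genes, with a median log2 ratio of -0.70 and a range from -1.14 (Gla) to 0.59 (Smpd1). WT 1 and WT 2 both lay below WT 3 and WT 4 for 35 of 39 genes, with a median of -0.49 and a range from -1.14 (Psap) to 0.48 (Smpd1). Over all genes tested these median ratios were 0.01 in KO and 0.02 in WT. Smpd1, which encodes acid sphingomyelinase, was the member that went the other way in both genotypes, and Scarb2 did so in KO. Scarb2, Ids and Atp6v0a1 overlapped between the WT sets. In bulk RNA, fewer cells of a type and less RNA per cell cannot be told apart. Among the other 5 libraries the members repeated closely, with a median difference between WT 3 and WT 4 of 0.03 on the log2 scale (at most 0.12, for Atp6v1d) and a median range over KO 2 to KO 4 of 0.06 (at most 0.18, for Lgals8).

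**Figure D1:**
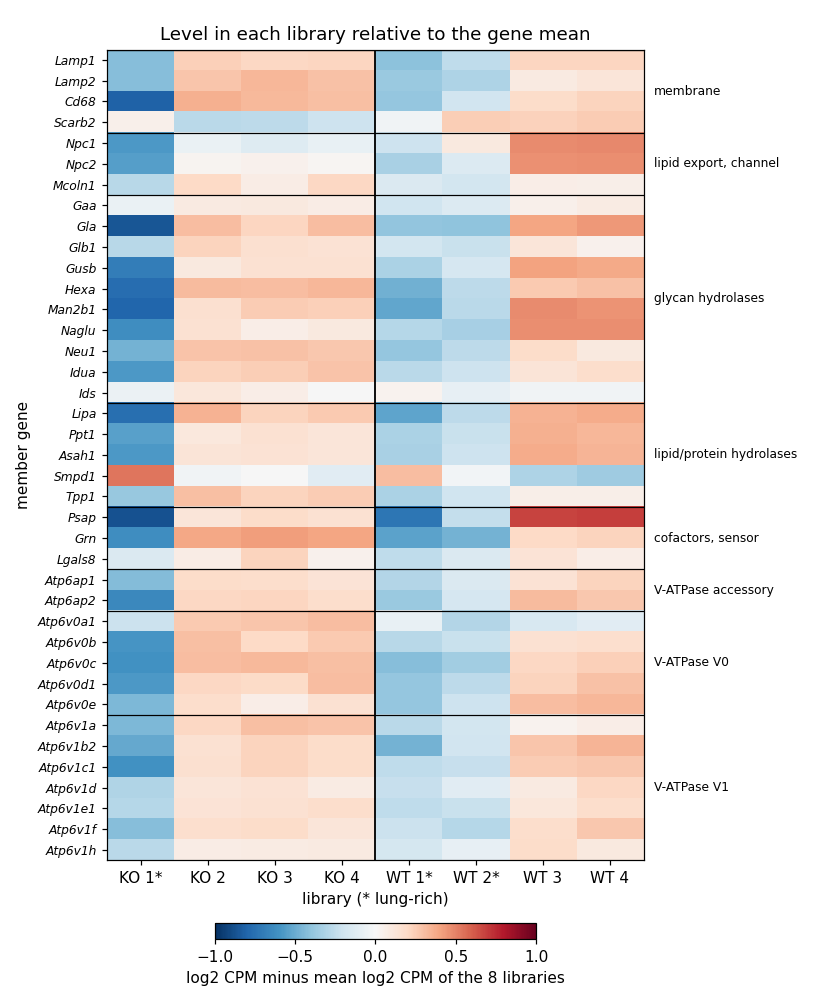
Log2 CPM of the 39 genes (rows, by role) in each library (columns, KO 1 to KO 4 and then WT 1 to WT 4, lung-rich libraries starred), each minus the gene's mean over the 8 libraries, as colour. KO 1 is the palest or bluest KO column for 37 of 39 genes, Psap is reddest in WT 3 and WT 4, and Smpd1 is reddest in KO 1.

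The genotypes were then compared with the library set as a second term. In that set-adjusted fit 1 of the 39 genes was higher in KO libraries, Smpd1, and 10 were lower, Scarb2, Npc1, Npc2, Gla, Gusb, Man2b1, Naglu, Ppt1, Asah1 and Psap, and 28 did not pass. The same fit called 16.5% of all genes, 8.59% higher and 7.89% lower. The median log2 fold change in it was -0.09 over the 39 genes and 0.03 over all genes. Over the 10 macrophage markers it was -0.24, with all 10 below 0 and 3 called lower. KO 1 had the lowest macrophage and the highest epithelial marker sums of the lung-rich libraries, which the set term does not adjust for. The part of cell make-up in the differences of this fit was not tested. By class, 1 hydrolase of 15 rose and 6 fell, 4 of the 10 other genes fell, and none of the 14 pump genes passed (4 had an unadjusted p under 0.05, and DESeq2 and limma-voom each called 1, Atp6v0e). The count was 18 without KO 1, 6 without KO 2, 6 without KO 3, 5 without KO 4, and 4 without either WT 3 or WT 4. WT 3 and WT 4 agreed almost within counting noise, with a median chi-square of 1.85 times the expected value against 2.09 to 4.67 times in other replicate pairs, and with them summed into 1 library 4 genes passed, all lower, Npc1, Npc2, Gusb and Naglu, where 6.01% of all genes passed (2.36% higher and 3.64% lower).

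**Figure D2:**
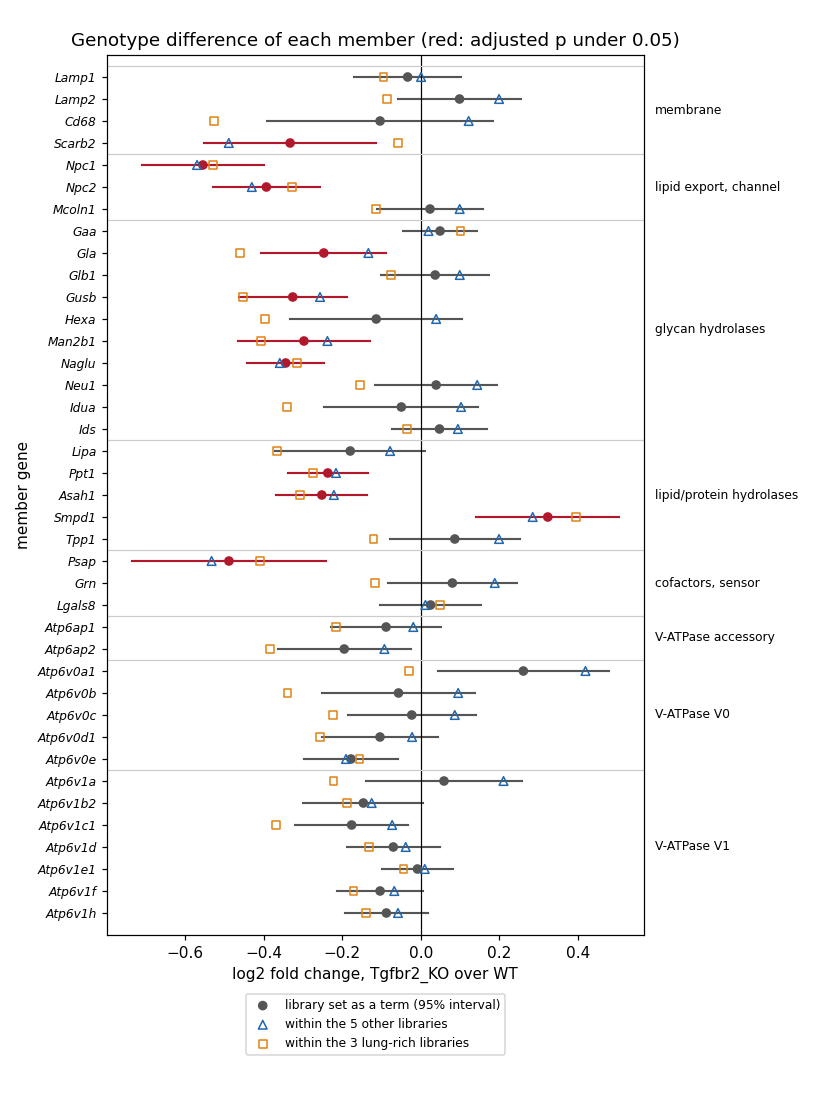
Log2 fold change, Tgfbr2_KO over WT, of each of the 39 genes in the set-adjusted fit (filled points, bars are 95% intervals, red where the adjusted p is under 0.05), within the 5 other libraries (triangles) and within the 3 lung-rich libraries (squares). Npc1, Npc2, Gusb and Naglu lie left of 0 by all 3 values, Smpd1 lies right of 0 by all 3, and Lamp2, Cd68, Tpp1, Grn and Atp6v1a have triangles right of 0 and squares left of it.

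A fit with 4 cells, genotype by library set, gave the difference inside each set and tested whether those differences differed. Within the 5 other libraries, 6 of 39 genes were higher in KO libraries (Lamp2, Smpd1, Tpp1, Grn, Atp6v0a1, Atp6v1a) and 11 were lower (the 10 of the set-adjusted fit and Atp6v0e), where 30.7% of all genes were called, 15.8% higher and 14.9% lower. Fitted alone, these 5 libraries gave 10 members higher and 13 lower, where 38.5% of all genes were called (19.7% higher and 18.7% lower). In the 4-cell fit the median log2 fold change was -0.02 over the members and -0.00 over all genes. Within the 3 lung-rich libraries, 1 gene was higher (Smpd1) and 19 were lower, where 21.2% of all genes were called, 11.7% higher and 9.51% lower. The median there was -0.22 over the members and 0.04 over all genes. KO 1 is the only KO library of that set and was assumed to vary like the others, and it also had the lowest macrophage and the highest epithelial marker sums, so genotype and cell make-up cannot be told apart there. The difference between the sets passed for 14 of 39 genes, 1 with a higher value in the lung-rich set (Scarb2) and 13 with a lower one, and for 18.9% of all genes (8.84% higher and 10.1% lower). In the other 5 libraries the summed macrophage, lymphocyte and fibroblast markers of the genotypes overlapped. Besides the alveolar macrophage and dendritic cell sums given above, 4 more did not overlap. Neutrophil markers summed to 146 to 159 CPM in KO libraries and to 215 and 221 CPM in WT libraries, and monocyte markers to 2041 to 2059 CPM in KO and to 1959.5 and 1953 CPM in WT. Epithelial markers summed to 232 to 299 CPM in KO and to 355 and 360.2 CPM in WT, and endothelial markers to 213 to 243 CPM in KO and to 282 and 284 CPM in WT. Their part in these differences was not tested. Without a test, the CPM of the genotypes did not overlap within the 5 other libraries for 15 members higher and 15 lower in KO, where 59.1% of all genes did not overlap (29.0% higher and 30.2% lower). Within the lung-rich libraries they did not overlap for 2 members higher and 33 lower, where 79.2% of all genes did not overlap (46.4% higher and 32.8% lower). In both sets the same way, Smpd1 was higher and 14 members were lower, against 14.8% and 13.6% of all genes.

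Both genes of cholesterol export were lower in KO libraries in the set-adjusted fit. Npc1 (chromosome 18, 12189692 to 12236400, minus strand, GRCm38) was at 134, 190.3, 183 and 189.5 CPM in KO 1 to KO 4, against 173, 213, 278 and 279 CPM in WT 1 to WT 4. Within each set every KO library was below every WT library, although KO 2 to KO 4 all exceeded WT 1. It averaged 174 ± 27.0 CPM in KO and 236 ± 51.9 CPM in WT (SD, n = 4 each) and fell by 0.55 on the log2 scale in the set-adjusted fit (SE 0.07, edgeR adjusted p = 0.00172), by 0.57 within the 5 other libraries and by 0.53 within the lung-rich ones. Npc2 (chromosome 12, 84754562 to 84773152, minus strand) was at 524, 784, 789.5 and 779 CPM in KO libraries, against 615, 699, 1055 and 1059 CPM in WT libraries, again lower in KO within each set. It fell by 0.39 (SE 0.06, edgeR adjusted p = 0.00426), by 0.43 within the other 5 and by 0.33 within the lung-rich libraries. Mcoln1, the calcium-releasing channel of the lysosomal membrane, did not follow them, with 46.1, 64.3, 59.0 and 64.4 CPM in KO libraries against 50.5, 49.3, 58.5 and 58.4 CPM in WT libraries and a set-adjusted log2 difference of 0.02 ± 0.06 SE. Npc1 shares exon sequence on the opposite strand with Rmc1, and so do Hexa, Idua, Lamp1, Grn, Ppt1, Lgals8, Atp6v0b, Atp6v1e1 and Atp6v1h with other genes. The sources used here do not give the strand setting of the counting, so reads of such pairs may be mixed, and Glb1 shares an exon of 165 bases with Tmppe on its own strand.

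Among the membrane proteins, Scarb2 and Lamp2 went in opposite directions within the 5 other libraries. Scarb2, also known as LIMP-2, carries the enzyme glucocerebrosidase to the lysosome. It was at 261, 208, 209.8 and 217 CPM in KO libraries, against 245, 297, 294 and 299.9 CPM in WT libraries. KO 1 lay inside the WT range and KO 2 to KO 4 lay below it. Scarb2 fell by 0.49 within the 5 other libraries (SE 0.07, edgeR adjusted p = 0.000546), was -0.06 ± 0.09 SE within the lung-rich ones, and these values differed by 0.43 (SE 0.12, edgeR adjusted p = 0.0291). Lamp2, a membrane coat protein needed for fusion with autophagosomes, was at 489.9, 801, 828 and 809 CPM in KO libraries, against 509, 531, 700.0 and 716 CPM in WT libraries. It rose by 0.20 within the 5 other libraries (SE 0.04, edgeR adjusted p = 0.00280) and was -0.09 ± 0.05 SE within the lung-rich set, a difference of -0.28 between the sets (SE 0.06, edgeR adjusted p = 0.0120). Cd68 was at 375, 841, 824 and 809 CPM in KO libraries, against 504, 576, 747 and 769 CPM in WT libraries: above WT among the 5 other libraries and below it among the lung-rich. It fell by 0.53 in the lung-rich set (SE 0.07, edgeR adjusted p = 0.000791), where KO 1 also had the lowest macrophage marker sum. Lamp1 had 0.00 ± 0.05 SE within the 5 other libraries, where KO 2 to KO 4 held 1460.4, 1429 and 1438 CPM and WT 3 and WT 4 held 1440.3 and 1444 CPM.

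**Figure D3:**
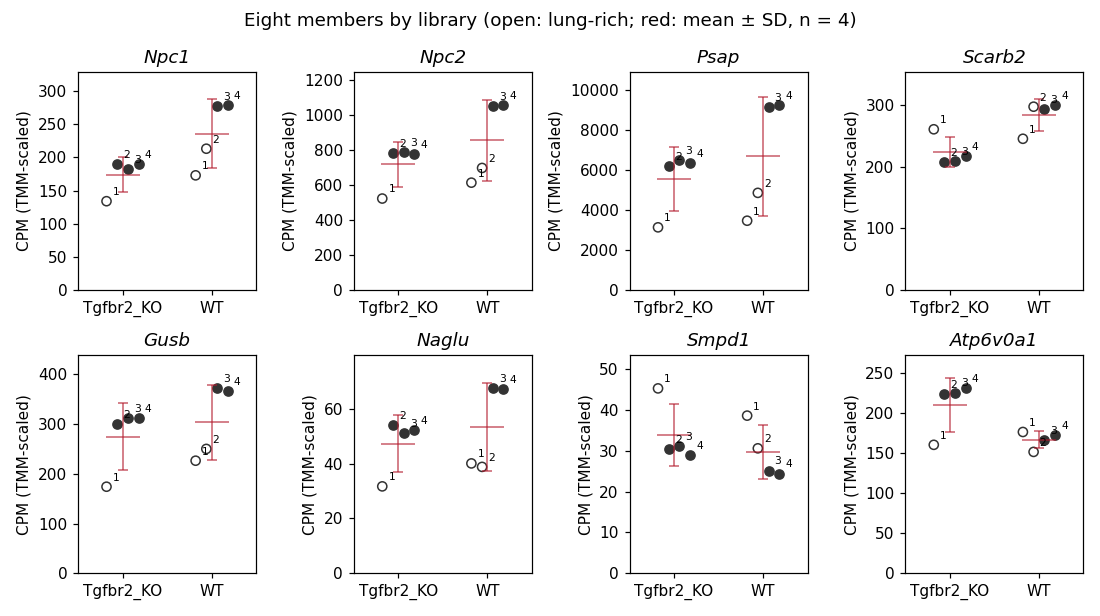
CPM (TMM-scaled) of 8 of the genes in each library, Tgfbr2_KO at left and WT at right, numbered by library, with lung-rich libraries as open circles and the mean ± SD of the 4 libraries in red. Npc1 has 183 to 190.3 CPM in KO 2 to KO 4 and 278 and 279 CPM in WT 3 and WT 4, and Smpd1 and Scarb2 are the panels where KO 1 is the highest KO library.

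Glycan-degrading enzymes fell or did not pass in the set-adjusted fit, and those that fell cut several different substrates. Gusb (β-glucuronidase, chromosome 5, 129989011 to 130003049, minus strand) was at 174, 301, 313 and 313 CPM in KO libraries, against 226, 250.2, 372 and 366 CPM in WT libraries. Naglu (α-N-acetylglucosaminidase, a heparan sulfate enzyme, chromosome 11, 101070012 to 101077672, plus strand) was at 31.7, 54.2, 51.1 and 52.2 CPM in KO libraries, against 40.0, 38.8, 67.4 and 67.3 CPM in WT libraries. Man2b1 (lysosomal α-mannosidase) was at 409.7, 793, 848 and 838 CPM in KO libraries, against 496, 589.8, 982 and 967 CPM in WT libraries. In all 3, KO libraries lay below WT libraries within each set. Gusb fell by 0.33 (SE 0.06, edgeR adjusted p = 0.00951), Naglu by 0.34 (SE 0.04, edgeR adjusted p = 0.00195) and Man2b1 by 0.30 (SE 0.07, edgeR adjusted p = 0.0276), and Man2b1 did not pass with WT 3 and WT 4 summed (adjusted p = 0.0916).

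Gla and Hexa were described in addition, after their values were seen, for the gap between their sets. Gla (α-galactosidase A, which removes galactose from globotriaosylceramide) was at 68.3, 153, 144 and 154 CPM in KO libraries, against 94.3, 93.7, 163 and 167 CPM in WT libraries. It fell by 0.13 within the 5 other libraries (SE 0.05, edgeR adjusted p = 0.0451) and by 0.46 within the lung-rich ones (SE 0.06, edgeR adjusted p = 0.000788), and the values differed between the sets (-0.33 ± 0.08 SE, edgeR adjusted p = 0.0150). Hexa was at 337, 712, 707 and 718 CPM in KO libraries, against 409, 477, 686 and 701 CPM in WT libraries, higher in KO among the other 5 libraries and lower among the lung-rich, where it fell by 0.40 (SE 0.08, edgeR adjusted p = 0.00517). Gaa, Glb1, Neu1, Idua and Ids did not pass in the set-adjusted fit, with log2 differences between -0.05 (Idua) and 0.05 (Gaa). Of these, Idua, which cleaves iduronic acid from dermatan and heparan sulfate, was lower in the lung-rich set (-0.34 ± 0.07 SE, edgeR adjusted p = 0.00813).

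Among enzymes of lipids and proteins, Ppt1 and Asah1 fell while Smpd1 rose. Ppt1 (palmitoyl-protein thioesterase, which strips fatty acids from proteins) was at 142, 223, 229.7 and 225 CPM in KO libraries, against 166, 178, 265 and 259.8 CPM in WT libraries. Asah1 (acid ceramidase) was at 275, 449, 453 and 446 CPM in KO libraries, against 327, 354, 531 and 517 CPM in WT libraries. Both were lower in KO within each set, and they fell by 0.24 (Ppt1, SE 0.04, edgeR adjusted p = 0.0104) and 0.25 (Asah1, SE 0.05, edgeR adjusted p = 0.0130). Smpd1 (chromosome 7, 105554360 to 105558389, plus strand), which turns sphingomyelin into ceramide, was at 45.2, 30.4, 31.0 and 28.9 CPM in KO libraries, against 38.6, 30.6, 25.1 and 24.4 CPM in WT libraries. It was the only member above WT in both sets without overlap, and the only one higher in the set-adjusted fit (0.32 ± 0.08 SE, edgeR adjusted p = 0.0275). It was also the member that ran highest in lung-rich libraries of both genotypes, and the part of other cell types in its level was not tested. So the enzyme that makes ceramide was higher, and Asah1, the enzyme that breaks it down, was lower, in KO libraries. With WT 3 and WT 4 summed, the adjusted p was 0.0957 for Smpd1, 0.0629 for Asah1 and 0.0546 for Ppt1. Tpp1, a tripeptidyl peptidase, was described after its values were seen: it had 212, 340.4, 323 and 329 CPM in KO libraries, against 221, 240.3, 288 and 288 CPM in WT libraries, and rose by 0.20 within the 5 other libraries (SE 0.05, edgeR adjusted p = 0.00812). Lipa, the acid lipase that hydrolyses cholesteryl esters and triglycerides, did not pass with the set term (-0.18 ± 0.08 SE, edgeR adjusted p = 0.187) and was lower in the lung-rich set (-0.37 ± 0.10 SE, edgeR adjusted p = 0.0279), without a test that passed for the difference between the sets (adjusted p = 0.136).

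The lysosomal cofactors split. Psap (chromosome 10, 60277627 to 60302597, plus strand) was at 3128, 6199, 6488 and 6354 CPM in KO libraries, against 3459, 4849.6, 9132 and 9229 CPM in WT libraries. KO 2 to KO 4 lay well below WT 3 and WT 4 but above WT 1 and WT 2. It averaged 5543 ± 1614 CPM in KO and 6668 ± 2957 CPM in WT (SD, n = 4 each) and fell by 0.49 with the set term (SE 0.11, edgeR adjusted p = 0.0186). The value was -0.53 ± 0.13 SE within the 5 other libraries (edgeR adjusted p = 0.0320) and -0.41 ± 0.18 SE within the lung-rich ones (edgeR adjusted p = 0.192), where WT 1 and WT 2 differed from each other by 0.49, the widest gap of any member in that pair. Grn was at 656, 1315, 1344 and 1325 CPM in KO libraries, against 696, 728, 1159 and 1173 CPM in WT libraries. It rose by 0.19 within the 5 other libraries (SE 0.04, edgeR adjusted p = 0.00301) and was -0.12 ± 0.05 SE within the lung-rich ones, and the values differed by -0.31 (SE 0.06, edgeR adjusted p = 0.00668). Progranulin binds prosaposin and helps carry it to the lysosome; here their transcripts went opposite ways among the 5 other libraries. Lgals8, a galectin that recognises damaged endosomal membranes, was at 69.4, 80.7, 89.6 and 79.1 CPM in KO libraries, against 64.4, 69.6, 84.4 and 80.6 CPM in WT libraries, with a set-adjusted log2 difference of 0.02 ± 0.06 SE.

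Of the pump's V0 sector, Atp6v0a1 and Atp6v0e moved apart within the 5 other libraries. Atp6v0a1, an isoform of the large subunit a that forms the proton path with the ring, was at 161, 224, 226 and 231 CPM in KO libraries, against 177, 152, 167 and 172 CPM in WT libraries. KO 2 to KO 4 lay above every WT library and KO 1 lay among them. It rose by 0.42 within the 5 other libraries (SE 0.06, edgeR adjusted p = 0.000372), was -0.03 ± 0.08 SE within the lung-rich ones, and these values differed by -0.45 (SE 0.10, edgeR adjusted p = 0.0105). Atp6v0a1 (chromosome 11, 101009452 to 101063719, plus strand) lies just before Naglu on the same strand, and Naglu fell in the same libraries. Atp6v0e, a small membrane subunit, was at 65.6, 101, 93.8 and 99.5 CPM in KO libraries, against 68.6, 77.4, 111 and 113 CPM in WT libraries, lower in KO within each set. It fell by 0.19 within the 5 other libraries (SE 0.06, edgeR adjusted p = 0.0276) and missed the threshold with the set term (adjusted p = 0.0518). Atp6v0d1, which links V0 to the central stalk, was at 94.4, 163, 160.4 and 174 CPM in KO libraries, against 108, 118, 164 and 172 CPM in WT libraries, with a set-adjusted difference of -0.10 ± 0.06 SE. Atp6v0b and Atp6v0c, ring subunits, were -0.06 and -0.02 in that fit. Atp6v0c has annotated pseudogenes that are not in the table, so reads could be shared with them.

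No gene of the V1 sector passed in the set-adjusted fit, where its 7 members ran from -0.18 (Atp6v1c1) to 0.06 (Atp6v1a). Atp6v1b2, the subunit that pairs with A in the ATP-splitting head, was at 143, 227, 237 and 231 CPM in KO libraries, against 147, 179, 247 and 258 CPM in WT libraries. Atp6v1c1, which helps hold V1 on V0, was at 75.6, 128, 135 and 131 CPM in KO libraries, against 96.8, 98.2, 138 and 139 CPM in WT libraries. Atp6v1f, of the rotating stalk, was at 49.2, 74.2, 75.0 and 71.5 CPM in KO libraries, against 56.8, 54.1, 74.5 and 79.6 CPM in WT libraries. In the lung-rich set all 3 had their lowest level in KO 1, and Atp6v1c1 passed there (-0.37 ± 0.06 SE, edgeR adjusted p = 0.00163). Atp6v1a, the catalytic subunit, was described after its values were seen, with 182, 286, 306 and 303 CPM in KO libraries against 206, 219, 255 and 260.4 CPM in WT libraries. It rose by 0.21 within the 5 other libraries (SE 0.05, edgeR adjusted p = 0.00584) and fell by 0.22 within the lung-rich ones (SE 0.06, edgeR adjusted p = 0.0297), with a difference of -0.43 between the sets (SE 0.08, edgeR adjusted p = 0.00339). The accessory proteins Atp6ap1 and Atp6ap2, which take part in assembly of the pump, did not pass with the set term (-0.09 ± 0.06 SE and -0.19 ± 0.07 SE). Atp6ap1 was at 223, 341, 339 and 331 CPM in KO libraries, against 245, 272, 333 and 349.9 CPM in WT libraries. Atp6ap2 was at 164, 295, 297 and 289 CPM in KO libraries, against 198, 228, 318 and 308 CPM in WT libraries.

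Set against each other, the pump and the hydrolases were compared by their summed levels and by the medians of their fold changes. The 14 pump genes summed to 1881, 3096, 3123 and 3111 CPM in KO libraries, against 2122, 2258, 2990.1 and 3064 CPM in WT libraries. The 15 hydrolases summed to 2278, 3983, 3987 and 3990.4 CPM in KO libraries, against 2651, 2931, 4272 and 4253 CPM in WT libraries. The ratio of the sums was 0.826, 0.777, 0.783 and 0.780 in KO libraries, against 0.800, 0.770, 0.700 and 0.720 in WT libraries. KO libraries had the higher ratio within each library set, and over all 8 libraries the genotypes overlapped. Abundant genes weigh most in these sums, and single genes of a class went both ways. Within the 5 other libraries 7 hydrolases were higher and 6 lower in KO without overlap. Of the pump genes 4 were higher and 5 lower there, where 59.1% of all genes did not overlap (29.0% higher and 30.2% lower). The pump counts were thus near the shares over all genes. The median log2 fold change of single genes was -0.09 over the pump genes and -0.11 over the hydrolases in the set-adjusted fit. Within the 5 other libraries it was -0.03 over the pump genes and 0.02 over the hydrolases, and within the lung-rich ones -0.20 over the pump genes and -0.31 over the hydrolases. The pump median was thus above the hydrolase median in the set-adjusted fit and the lung-rich set, and below it within the 5 other libraries. In the lung-rich set 7 of 14 pump genes fell and none rose, and 9 of 15 hydrolases fell and 1 rose. The share of all genes called there was 21.2%. Within the 5 other libraries 2 of 14 pump genes rose and 1 fell, and 2 of 15 hydrolases rose and 6 fell, where 30.7% of all genes were called. No test of the pump as a group against the hydrolases was made.

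**Figure D4:**
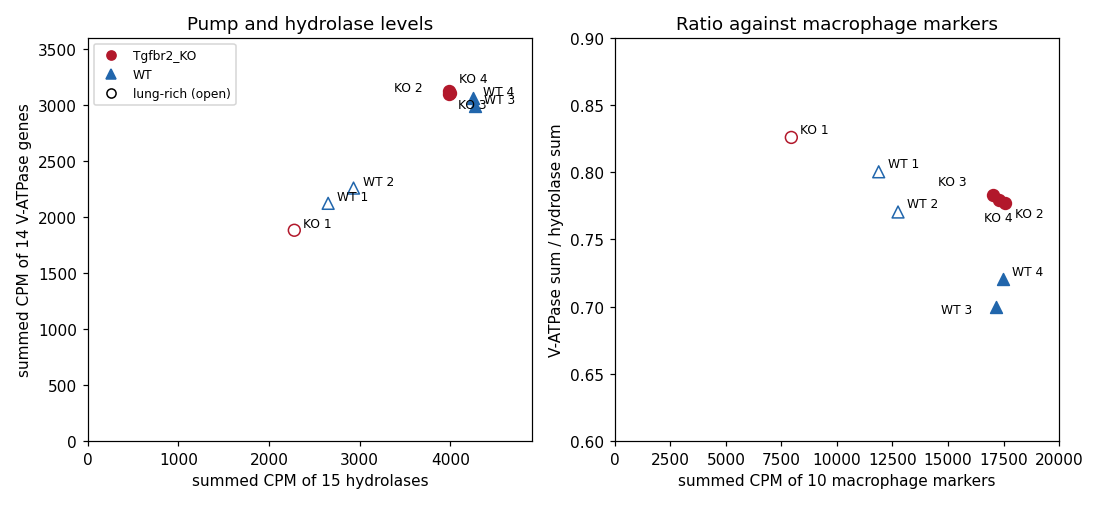
Left, summed CPM of the 14 pump genes against that of the 15 hydrolases in each library; right, the ratio of these sums against the summed CPM of 10 macrophage markers (circles, Tgfbr2_KO; triangles, WT; open symbols, lung-rich; the right vertical axis starts above 0). KO 2 to KO 4 lie at ratios of 0.777 to 0.783, and WT 3 and WT 4 at 0.700 and 0.720 with like macrophage marker sums.

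Since nearly all members were low together in the lung-rich libraries, the levels were also taken relative to the median of the 39 genes in the same library, a scale added after seeing the data. On it the genotypes did not overlap over the 8 libraries for 7 members, where 7.01% of all genes had no overlap (5.28% higher and 1.73% lower). Lamp1, Lamp2, Neu1, Tpp1 and Atp6v1a, 5 genes, were higher in KO libraries, and Npc1 and Npc2 were lower. Npc1 stood at -0.09, -0.23, -0.27 and -0.25 on the log2 scale in KO libraries, against 0.04, 0.26, 0.17 and 0.11 in WT libraries. Lamp2 stood at 1.78, 1.85, 1.91 and 1.85 in KO libraries, against 1.60, 1.58, 1.50 and 1.47 in WT libraries. Npc2 was separated by less than these decimals show, with 1.87 in KO 1 and 1.87 in WT 1. On this scale the lung-rich libraries of each genotype lay close to the others for Lamp2, with KO 1 the lowest of KO and WT 1 the highest of WT. The scale depends on which 39 genes form the median, and no test was made on it.

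Genes outside the 39, listed as lysosomal or as related to lysosomal genes, were counted in the same set-adjusted fit, against its 16.5% of all genes called. The part of cell make-up in these counts was not tested either. Up to 3 genes of each list are named, those with the smallest p. Of 12 cathepsins and legumain, none rose and 6 fell, among them Ctss (-1.05), Ctsz (-0.57) and Lgmn (-0.46). Ctss, a cathepsin that trims the invariant chain in antigen presentation, was at 1029, 2077, 2071 and 2069 CPM in KO libraries, against 1579, 2240.1, 4535 and 4595 CPM in WT libraries. Of 25 other hydrolases 2 rose and 11 fell. Smpdl3b, a membrane-anchored relative of acid sphingomyelinase, was at 35.8, 43.1, 40.1 and 40.3 CPM in KO libraries, against 27.7, 26.2, 24.6 and 23.3 CPM in WT libraries, and of the 103 listed genes tested it alone also passed with genotype as the only term (0.65, edgeR adjusted p = 0.0350).

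Of 12 other pump genes tested 3 fell, Tcirg1 (-0.46 ± 0.06 SE), Dmxl2 (-1.08 ± 0.14 SE) and Rogdi (-0.34 ± 0.09 SE). Tcirg1 encodes the a3 isoform of the same subunit as Atp6v0a1, and was at 189, 327, 308 and 313 CPM in KO libraries, against 245, 279, 428 and 439 CPM in WT libraries. Within the 5 other libraries Atp6v0a1 was higher in KO libraries (0.42), while Tcirg1 (-0.46) and another isoform of subunit a, Atp6v0a2 (-0.28 ± 0.07 SE, edgeR adjusted p = 0.0135), were lower. Atp6v0a2 was named after its values were seen. Dmxl2 and Rogdi belong to the complex that reassembles V1 on V0. Dmxl2 was at 42.2, 63.0, 59.0 and 56.0 CPM in KO libraries, against 58.7, 85.9, 141 and 142 CPM in WT libraries. Dmxl1, also among the 12 and named after its values were seen, did not fall with Dmxl2. Within the 5 other libraries Dmxl1 was higher in KO libraries (0.33 ± 0.04 SE, edgeR adjusted p = 0.000143). Its value was 0.19 ± 0.08 SE in the set-adjusted fit (edgeR adjusted p = 0.158) and -0.09 within the lung-rich libraries. Of 22 other membrane and transport genes 1 rose and 4 fell, among them Slc29a3 (-0.49), Cd63 (-0.46) and Clcn7 (-0.44). Of 19 regulators none rose and 4 fell, among them Fnip2 (-0.47), Mitf (-0.58) and Rheb (-0.20), and of 13 genes that sort enzymes to the lysosome none rose and 5 fell, among them Gnptab (-0.54), M6pr (-0.31) and Gga2 (-0.42). Mitf, a relative of TFEB that binds the same core motif, was at 26.9, 56.7, 52.0 and 53.1 CPM in KO libraries, against 49.4, 44.5, 70.8 and 77.6 CPM in WT libraries. With WT 3 and WT 4 summed, where 6.01% of all genes were called, fewer passed: 3 cathepsins, 6 other hydrolases, 2 other pump genes, 3 membrane and transport genes, 2 regulators and 3 sorting genes fell, and 2 other hydrolases rose. The motif CACGTG was in 2 of 8 members that fell and have a promoter entry, in 8 of 25 that did not pass, and not in Smpd1.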

How the data were processed

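Polyadenylated RNA of 8 sorted samples was sequenced from stranded libraries on a NovaSeq, per the labels' protocols. The authors deposited 1 merged table of salmon estimated counts, per its file name, whose totals differ between libraries as unscaled counts do. Whole numbers, to within 1e-06, made up 81.8% to 84.8% of a library's values. GRCm38 and DESeq2 1.40.1 are named in the submitters' processing notes; the sources used here do not give the salmon version, annotation or strand setting. Columns spelled KO were matched to the titles spelled with a zero.

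Rounded counts were fitted with edgeR 4.0.16 in R 4.3.3 (robust quasi-likelihood F-test, TMM, filterByExpr with a minimum count of 10 and minimum total of 15, Benjamini-Hochberg adjustment over the 12750 genes kept, threshold 0.05). Alternatives used limma 3.58.1 and DESeq2 1.42.0, other scalings and filters, each library left out, a replicate block and WT 3 and WT 4 summed. CPM are TMM-scaled, SE is derived from the F statistic and intervals are at 95%. Library depth limits the precision of genes with few counts, and 3 counts correspond to 0.0844 to 0.177 CPM. The fits were first tested on simulated data with known changes. Those changes were larger than any genotype difference of a member reported here, so the simulation does not show how well such small differences are found. Gene positions and exon lengths are from GENCODE M21.

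The 39 members, the gene and marker lists and the library sets were chosen with earlier results of these data known. Values per library are given for the 3 members of each of 8 classes with the smallest p in the set-adjusted fit, 23 genes, and for Tgfbr2, and of other lists for up to 3 genes called there. Some genes that this rule names are not reported.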

Additional observations from a re-analysis of the deposited data

Results flagged for a closer look

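In 46 groups of 4 libraries (the 23 genes named by rule, in each genotype), the highest or lowest library was compared with the rest by Dixon's ratio, and 19 groups had a library past the 95% critical value. Chance alone flags about 1 group in 20, but these groups share the same 8 libraries, so their flags are not independent. In 18 of the 19 flagged groups the library was KO 1, the lung-rich KO library, and in 1 it was WT 1. KO 1 lay below KO 2 to KO 4 for 37 of the 39 genes, as given above.

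KO 1 was far below KO 2 to KO 4 for 17 genes. Its level was 489.9 CPM for Lamp2, 375 CPM for Cd68, 134 CPM for Npc1, 524 CPM for Npc2, 174 CPM for Gusb and 409.7 CPM for Man2b1. It was 31.7 CPM for Naglu, 142 CPM for Ppt1, 275 CPM for Asah1, 3128 CPM for Psap and 656 CPM for Grn. Among pump genes it was 223 CPM for Atp6ap1, 164 CPM for Atp6ap2, 161 CPM for Atp6v0a1, 143 CPM for Atp6v1b2, 75.6 CPM for Atp6v1c1 and 49.2 CPM for Atp6v1f. KO 1 was far above the other KO libraries for Smpd1, at 45.2 CPM. Scarb2 was far lower in WT 1, at 245 CPM, than in the other WT libraries, among them the lung-rich WT 2 at 297 CPM.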

How the results depend on the processing

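With genotype alone, DESeq2 called 1 of the 39 genes and leaving out 1 library at a time gave 0 to 2, against none in the fit reported. In the set-adjusted fit, which called 11, leaving out 1 library at a time gave 4 to 18, WT 3 and WT 4 summed gave 4, and the 5 other libraries alone gave 23, where 38.5% of all genes were called. Npc1, Npc2, Gusb and Naglu passed in all 17 settings tried, and no called gene changed direction in any of them. Each setting kept the library set as a term or used the 5 other libraries alone, and none adjusted for cell make-up within a set. With genotype alone Gla had a log2 fold change of 0.004, against -0.25 in the set-adjusted fit. On the scale relative to the median member, 7 genes had no overlap of genotypes, against 0 in CPM. A fit with the replicate number as a block also called 0 genes with all 8 libraries. Same-numbered libraries deviated from their genotype means with correlations of 0.892, -0.853, 0.811 and 0.848. The negative value is that of KO 2 and WT 2, the only same-numbered libraries from different library sets. The correlations follow the library sets and so cannot show whether the numbers are pairs. The labels do not call them pairs, and they were not taken as such. The lung-rich comparison rests on KO 1 for its KO side, and depth limits precision most for Glb1 and Smpd1, the members with the fewest counts.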
